A study of Mus musculus with 7 samples.

Results

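The nuclear-encoded genes of the mitochondrial respiratory chain were taken by name from the GENCODE M1 annotation of the mm9 mouse genome. They are the protein-coding genes whose symbol starts with Nduf, Uqcr, Cox4, Cox5, Cox6, Cox7, Cox8 or Atp5, or with Sdh followed by a, b, c or d, with -ps names and Sdhaf genes left out. This name rule took 91 gene records under 90 names, and 90 records were measured among 31498 measured genes. The remaining record is a duplicate of Ndufb8 (ENSMUSG00000091471.1) with 0 exonic bases of its own. Of the 90 genes, 36 encode complex I subunits, 4 complex I assembly factors, 4 complex II, 8 complex III, 20 complex IV and 15 complex V. Another 3 (Atp5s, Atp5sl and Cox4nb) carry the names without being subunits. The rule used no measured value.

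RNA-seq was performed on F123 cells, a mouse embryonic stem cell line from a cross of Mus musculus castaneus (CAST) with the 129 strain S129/SvJae. The wild type (WT) library came from cells with the distal Sox2 super-enhancer (SE) on both alleles. In CAST+/129- cells the SE was deleted from the 129 allele, in CAST-/129+ cells from the CAST allele, and in CAST-/129- cells from both, in each case with a pair of CRISPR guide RNAs. Each genotype is 1 clone and 1 library, so that a difference between clones cannot be told apart from an effect of the deletion, and no difference has a replicate check or a test. After transfection the cells were plated on mouse embryonic fibroblast feeders under puromycin, and per the study's methods cells were passaged without feeders before harvest. ChIP-seq libraries for H3K4me3 and H3K27ac in F123 cells and for H3K27ac in J1 cells, a 129 line, were also used, 1 of each. H3K4me3 marks active promoters, and H3K27ac marks active promoters and enhancers.

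The respiratory chain sits in the inner mitochondrial membrane. Complex I oxidises NADH and complex II oxidises succinate, and both pass electrons to ubiquinone, complex III passes them to cytochrome c, and complex IV passes them to oxygen, while complex V uses the proton gradient to make ATP. Most subunits are encoded in the nucleus and a few core subunits in mitochondrial DNA, and several complex IV subunits exist as tissue isoforms of heart and muscle, of testis or of low oxygen. Embryonic stem cells rely much on glycolysis, and oxidative phosphorylation is known to change when they leave the naive state.

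The deposited files give each aligned position on 1 line with a whole number, which was taken here as the number of reads with that alignment, since the sources used here do not define it. On that reading the WT library held 64809147 reads on genes, CAST+/129- held 22179069, CAST-/129+ 9900604 and CAST-/129- 8562780. They came from 24848422, 12458881, 6058939 and 5831199 distinct alignments in the same order. Values are FPKM, reads on a gene scaled by its exon length and by the reads on all genes, with exact 95% Poisson intervals scaled from the distinct alignments, since reads at the same position may be copies. The intervals cover counting error only. Sox2, the gene the SE acts on, was at 164 FPKM in WT, and CAST+/129- had 62.2, CAST-/129+ 58.7 and CAST-/129- 5.70 FPKM, or 38.0, 35.9 and 3.49% of WT. The 12 embryonic stem cell markers used to check the cell type had a median log2 ratio to WT of -0.40, -0.48 and -0.80. The summed FPKM of 16 fibroblast markers was 33.4 in WT, 78.1, 87.2 and 552 in CAST-/129-, and 0 of the 16 were at 0 in every library. The summed level of 15 striated muscle markers was 9.70, 31.1, 35.6 and 91.6 FPKM (Acta1 alone 2.41, 16.5, 15.6 and 61.7 FPKM), and that of 8 neural markers was 9.01, 28.7, 26.8 and 39.5 FPKM. The part of these cells in the values below was not tested, and in bulk RNA fewer cells of a type and less RNA per cell cannot be told apart.

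Counted in reads, the respiratory chain genes as a group were close to their WT levels in all 3 deletion clones. Their median was 60.7 FPKM in WT, 67.7 in CAST+/129-, 61.1 in CAST-/129+ and 56.2 in CAST-/129-. Their summed level was 8821 FPKM in WT, 9183 in CAST+/129-, 8826 in CAST-/129+ and 7872 in CAST-/129-, and the last is 89.2% of WT. Of the 90 genes, 83 had a mean of at least 5 FPKM over the libraries, and the 7 below were the isoforms Cox4i2, Cox6a2, Cox7b2, Cox8b, Cox8c and Ndufa4l2 with Atp5s. The genes made up 2.18% of the summed FPKM of all genes in WT and 2.11, 2.01 and 1.95% in the clones when reads were counted, and 1.66, 1.83, 1.91 and 1.87% when each distinct alignment was counted once, so that WT was the highest library in one unit and the lowest in the other.

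**Figure D1:**
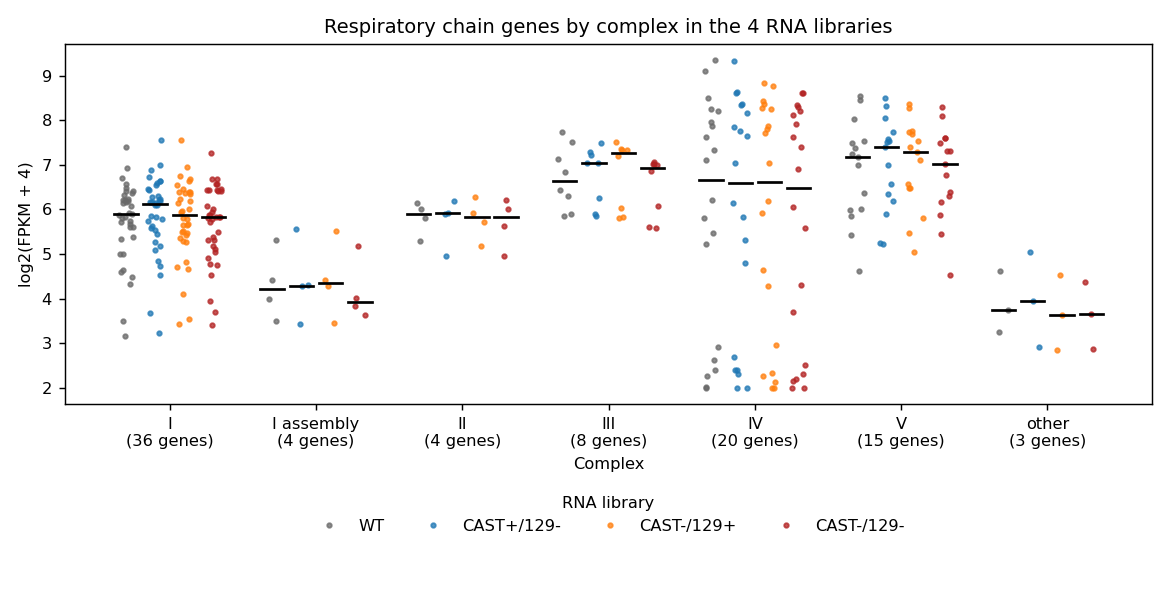
Level of each respiratory chain gene, as log2 of FPKM plus 4 on the vertical axis, by complex on the horizontal axis and by RNA library in colour, with a black bar at the median of each set. The sets of the 4 libraries overlap in each complex, and complex IV spans from genes near 0 FPKM to Cox4i1 at 644 FPKM in WT.

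Ratios to WT were calculated as log2 of FPKM plus 4, which understates the change of low genes. The median log2 ratio of the 90 genes was 0.08 in CAST+/129-, 0.03 in CAST-/129+ and -0.12 in CAST-/129-, against 0.04, 0.02 and 0.01 over the 8349 genes with a mean of at least 5 FPKM. The middle 50% of the respiratory chain genes lay between -0.09 and 0.24, between -0.13 and 0.20, and between -0.30 and 0.09. In reads, 57 members were below WT and 32 above in CAST-/129-, compared with 35 and 54 in CAST+/129- and 41 and 48 in CAST-/129+. Of the 8349 genes, 4077 were below and 4272 above in CAST-/129-, 3888 and 4461 in CAST+/129-, and 3983 and 4366 in CAST-/129+.

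How many members passed a 1.5-fold difference depended on the unit of counting. In reads, 4 were higher and 2 lower by that much in CAST+/129-, where 2.93% of all measured genes were higher and 3.27% lower. In CAST-/129+ 3 were higher and 4 lower, with 3.68 and 3.36% of all genes. In CAST-/129- 0 were higher and 7 lower, with 5.24 and 3.68% of all genes. Among genes with a mean of at least 5 FPKM the shares were larger, 9.16 and 8.42%, 10.2 and 8.90%, and 11.9 and 10.2%, while the 83 respiratory chain genes of that level held 3 and 1, 2 and 3, and 0 and 6. In distinct alignments, 4 members were higher and 2 lower in CAST+/129-, with 2.95 and 4.30% of all genes, 19 and 3 in CAST-/129+, with 4.03 and 5.45%, and 8 and 6 in CAST-/129-, with 4.75 and 6.51%. Of the 83 members with a mean of at least 5 FPKM these were 3 and 0, 18 and 1, and 7 and 3, where 7.76 and 8.17%, 10.5 and 11.2%, and 9.76 and 14.4% of all genes of that level passed. With all libraries first thinned to the reads of the smallest, only Ndufv3 and Ndufa4l2 were higher by 1.5-fold in CAST-/129+. In CAST-/129- only Ndufa4l2 was, and the share of all genes is not given for that unit. In reads, past the 3-fold threshold of the study's methods there was 1 gene in 1 clone, Cox6b2 in CAST-/129-, where 0.397% of all genes were lower and 0.835% higher by 3-fold. In CAST+/129- 0.305% of all genes were higher and 0.251% lower by 3-fold, and in CAST-/129+ 0.470 and 0.267%.

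**Figure D2:**
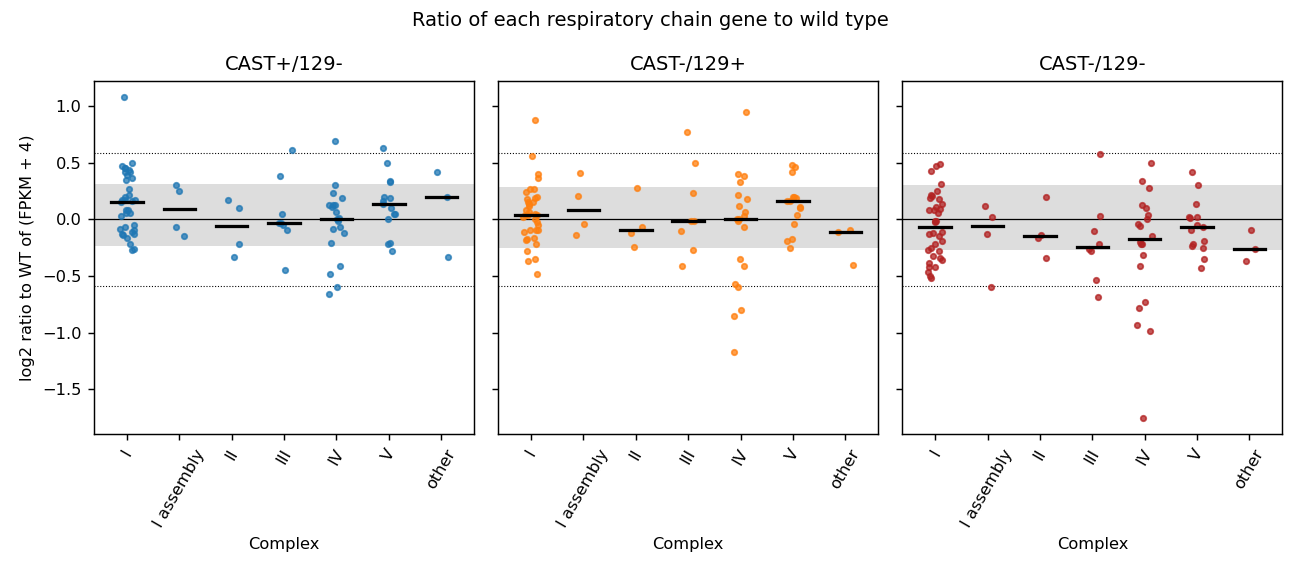
Log2 ratio to WT of each gene (FPKM plus 4, from reads) by complex, 1 panel for each deletion clone, with a black bar at the median of each complex, a grey band over the middle 50% of all genes with a mean of at least 5 FPKM, and dotted lines at 1.5-fold. Most genes lie inside the dotted lines, and Cox6b2 in complex IV is the lowest point in CAST-/129- at -1.75.

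The direction of the group depended on how reads at the same position were counted. In the WT library a median of 3.33 reads stood behind each distinct alignment of the 83 expressed members, where the reads on all genes over their distinct alignments came to 2.61, and in CAST-/129- both values were 1.47. When each distinct alignment was counted once, the median log2 ratio was 0.25 in CAST+/129-, 0.30 in CAST-/129+ and 0.17 in CAST-/129-, against 0.04, -0.03 and -0.07 over the 8349 genes. With all libraries thinned to the reads of the smallest before collapsing, it was 0.11, 0.08 and -0.06, against 0.07, 0.06 and 0.00. Thus the group median of CAST-/129- was below WT in reads and after thinning, and above WT in distinct alignments. Distinct alignments were compared at unequal depth, with WT the deepest library, while thinning made the reads equal. The direction depended on the unit, and none is given for the group. Sign by sign, 27 genes were above WT and 25 below in CAST-/129- in all 3 units of counting, and 38 were not on the same side in all of them. In CAST+/129- 53 were above and 11 below in every unit, and in CAST-/129+ 46 and 12. Across all 3 clones and all 3 units, 22 genes were above WT and 6 below (Atp5s, Cox5a, Cox6a2, Cox6b2, Cox7b2 and Ndufaf1), of which Cox5a was within 0.09 of WT in distinct alignments. The same counts were not made over all genes, and the 3 units recount the same reads. The clones share the WT library, so that an error in WT would move all of them together.

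**Figure D3:**
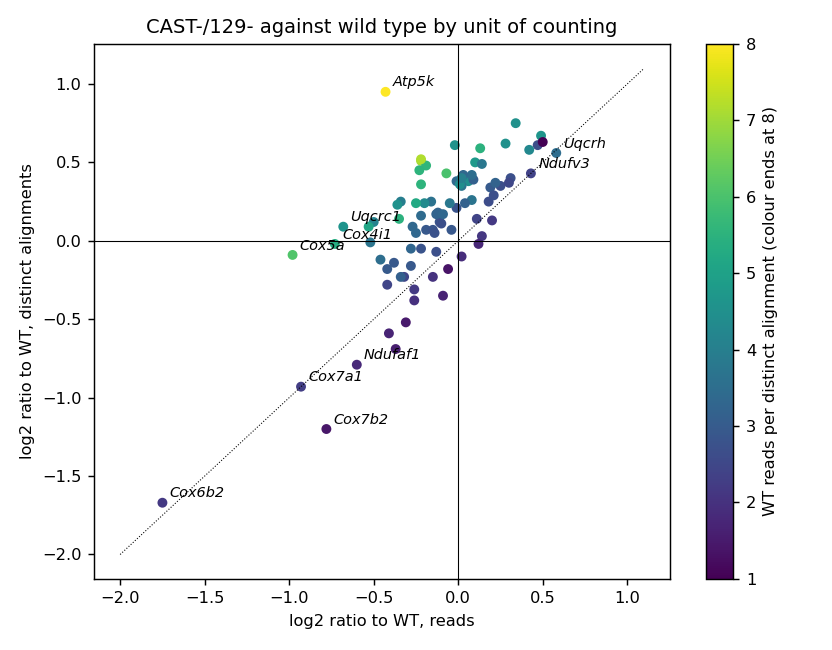
Log2 ratio of CAST-/129- to WT for each gene, from reads on the horizontal axis and from distinct alignments on the vertical axis, coloured by the WT reads behind each distinct alignment, with a dotted line where both are equal. Cox6b2, Cox7a1 and Uqcrh lie near the line, while Cox5a (-0.98 and -0.09) and Atp5k (-0.43 and 0.95), with many reads per alignment, lie far above it.

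Complex I had the most members, and in CAST-/129- their log2 ratios in reads ran from -0.52 to 0.49, with 0 of 36 past 1.5-fold, while in distinct alignments Ndufa2 (0.61), Ndufa3 (0.67) and Ndufa5 (0.61) were past it. Its median log2 ratio was 0.15 in CAST+/129-, 0.04 in CAST-/129+ and -0.06 in CAST-/129-, and its summed level was 111, 104 and 95.4% of WT. In distinct alignments the median was 0.28, 0.31 and 0.20, so that the direction in CAST-/129- depended on the unit. The highest in WT per kilobase of annotated exon was Ndufb9, an accessory subunit, at 165 FPKM, followed by 185, 184 and 151 FPKM in the clones. The lowest was Ndufb2, another accessory subunit, at 4.94, 5.42, 6.78 and 6.60 FPKM. Its annotated exons span 5483 bases of which 170 are coding, and per coding base alone its WT level was 144 FPKM. Ndufab1, the mitochondrial acyl carrier protein, likewise had 7.38 FPKM over 6883 exonic bases and 149 over its 468 coding bases. Levels of different members therefore depend on the transcripts annotated, and ratios of a gene between libraries do so less.

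Ndufv3, a small subunit of the NADH-oxidising arm, was furthest above WT in CAST+/129- and CAST-/129+ in reads among members with at least 100 distinct alignments in either library. In distinct alignments Atp5k, at 0.94, was further above WT in CAST-/129+. Ndufv3 had 18.3 FPKM (17.1 to 19.4) in WT, against 42.9 (40.3 to 45.6) for CAST+/129-, 37.1 (33.8 to 40.6) for CAST-/129+ and 26.0 (23.2 to 28.9) for CAST-/129-. All 3 clones were above WT with counting intervals that did not overlap it, at 235, 203 and 142% of WT. The log2 ratios of 1.08, 0.88 and 0.43 were 0.90, 0.79 and 0.43 in distinct alignments.

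Ndufv3 has a long coding exon that is known to be spliced in or out, which gives a long and a short protein. This exon, at 31664255 to 31665346 of chromosome 17 (mm9), was at 3.39 FPKM (2.90 to 3.95) in WT, against 7.72 (6.60 to 8.98) for CAST+/129-, 11.4 (9.28 to 13.8) for CAST-/129+ and 10.6 (8.49 to 13.0) for CAST-/129-. The last exon of the gene, at 31668055 to 31668266, was at 60.1 FPKM (54.1 to 66.4), 149 (135 to 164), 107 (90.6 to 125) and 80.4 (65.8 to 97.4). In CAST-/129- the long exon was thus at 312% of its WT level, while the first, the second and the last exon were at 110, 122 and 134%. In CAST-/129+ the long exon was at 336%, and the first, the second and the last exon were at 191, 199 and 178%. In CAST+/129- the long exon was at 228% and the 3 short exons were at 222 to 248%. These percentages are from reads, and those of distinct alignments are not given. From WT to CAST-/129- the long exon had 166, 168, 102 and 88 distinct alignments. The first exon had 231, 234, 79 and 59, the second 227, 201, 121 and 80, and the last 376, 417, 156 and 105. In every library the long exon was below the 3 short exons, and a further annotated exon had 0 reads. The exons were looked at after the values of the gene were known.

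Of the remaining complex I genes, Ndufa3, an accessory subunit of the membrane arm, was above WT in each clone, at 63.5 FPKM (59.1 to 68.2) in WT and 89.4 (82.1 to 97.1), 95.8 (85.5 to 107) and 90.8 (80.7 to 102) in the clones. Ndufa2, of the NADH-oxidising arm, was at 70.3, 95.7, 77.0 and 98.7 FPKM in the same order. Ndufa11, a membrane arm subunit, was at 20.1, 30.0, 24.4 and 23.3 FPKM. These 3 genes were above WT in every clone and every unit of counting. Ndufs1, the large iron-sulfur core subunit, was at 56.1 FPKM (54.5 to 57.8) in WT, against 49.8 (47.9 to 51.8) for CAST+/129-, 39.0 (36.6 to 41.5) for CAST-/129+ and 40.8 (38.2 to 43.5) for CAST-/129-. Its log2 ratio in distinct alignments was 0.10 in CAST+/129- and -0.18 in the other 2 clones, so only CAST-/129+ and CAST-/129- were below WT in both units.

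The assembly factors, which build complex I but are not part of it, were expressed at lower levels, from Ndufaf2 at 35.7 FPKM to Ndufaf4 at 7.36 FPKM in WT. Ndufaf1 was at 17.5 FPKM (16.4 to 18.7) in WT, against 15.4 (14.0 to 17.0) for CAST+/129-, 15.5 (13.3 to 18.0) for CAST-/129+ and 10.2 (8.40 to 12.3) for CAST-/129-, which is 58.1% of WT. It was past 1.5-fold lower in CAST-/129- in all 3 units. Ndufaf3 was at 12.0, 15.7, 17.2 and 12.3 FPKM, and Ndufaf2 was at 43.1, 41.8 and 32.3 FPKM in the clones. Ndufaf4 had 6.81, 7.04 and 8.38 FPKM there. In reads the 4 factors did not share a direction in any clone, while in distinct alignments all of them were below WT in CAST-/129-, with log2 ratios of -0.79 for Ndufaf1, -0.07 for Ndufaf2, -0.10 for Ndufaf3 and -0.02 for Ndufaf4. The median of all genes with a mean of at least 5 FPKM was -0.07 there, and only Ndufaf1 lay far below it.

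Complex II, succinate dehydrogenase, links the chain to the citric acid cycle and has 4 subunits, all encoded in the nucleus. Sdha, the flavoprotein, had 67.3 FPKM (65.6 to 69.0) in WT, 57.0 (55.0 to 59.1), 56.4 (53.6 to 59.3) and 60.8 (57.8 to 64.0) in the clones. Sdhb, the iron-sulfur subunit, was at 51.7 FPKM (49.5 to 53.9), 55.6 (52.7 to 58.7), 48.9 (45.3 to 52.7) and 45.7 (42.1 to 49.5). In reads the catalytic pair was at 83.9 to 108% of WT, and its log2 ratios in distinct alignments were -0.04, 0.01 and 0.05 for Sdha and 0.31, 0.41 and 0.25 for Sdhb. Of the membrane anchors, Sdhc was at 35.2 FPKM (33.8 to 36.6), 27.1 (25.5 to 28.8), 32.1 (29.6 to 34.9) and 27.1 (24.7 to 29.6). Sdhd was at 60.5 FPKM (58.1 to 63.0), 68.7 (65.0 to 72.6), 74.2 (68.9 to 80.0) and 69.9 (64.4 to 75.7). Sdhd was above WT in each clone in every unit, and Sdhc was below it in reads, with log2 ratios of -0.16, 0.00 and -0.23 in distinct alignments. In reads 0 of the 4 were past 1.5-fold.

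In complex III, members differed in direction. Uqcrh, the hinge protein that helps cytochrome c bind, was at 82.3 FPKM (78.6 to 86.1) in WT, against 128 (121 to 135) for CAST+/129-, 143 (134 to 154) for CAST-/129+ and 125 (116 to 135) for CAST-/129-. In reads it had the highest of all 90 ratios in CAST-/129-, 0.58, and its ratios of 0.61, 0.77 and 0.58 were 0.49, 0.75 and 0.56 in distinct alignments. Uqcrc1, a core protein, was at 210 FPKM (204 to 216) in WT, against 152 (147 to 158) for CAST+/129-, 158 (150 to 166) for CAST-/129+ and 129 (122 to 137) for CAST-/129-. Its ratios of -0.45, -0.41 and -0.68 in reads became 0.06, 0.30 and 0.09 in distinct alignments and -0.28, -0.19 and -0.42 after thinning, so that its direction depended on the unit. Uqcr11, a small subunit, was at 110, 144, 158 and 112 FPKM, and the iron-sulfur protein Uqcrfs1, the lowest of complex III in WT in reads, was at 53.4, 55.6, 53.1 and 43.9 FPKM. Summed over the 8 genes, complex III was at 101, 107 and 85.4% of WT, and its median log2 ratio in CAST-/129- was -0.24 in reads and 0.10 in distinct alignments.

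The 250 bases before the start are shown for Uqcrh and Ndufv3, which were above WT in each clone and each unit of counting, from RefSeq on GRCm38.p6, with capitals for the CCAAT box (CCAAT), the GC box (GGGCGG) and an ETS core (CCGGAAG) on either strand. The windows are chr4:116075071-116075320 on the minus strand and chr17:31519865-31520114 on the plus strand.
Uqcrh: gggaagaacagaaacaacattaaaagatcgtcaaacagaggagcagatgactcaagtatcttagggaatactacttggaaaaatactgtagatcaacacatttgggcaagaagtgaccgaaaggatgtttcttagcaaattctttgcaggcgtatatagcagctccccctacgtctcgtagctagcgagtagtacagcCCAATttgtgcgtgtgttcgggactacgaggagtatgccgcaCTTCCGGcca
Ndufv3: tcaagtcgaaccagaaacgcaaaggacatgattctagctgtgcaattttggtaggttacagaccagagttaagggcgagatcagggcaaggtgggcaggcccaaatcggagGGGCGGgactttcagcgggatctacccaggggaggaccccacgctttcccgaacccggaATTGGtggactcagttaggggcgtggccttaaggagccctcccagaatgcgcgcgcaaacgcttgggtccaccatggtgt
Uqcrh has an ETS core and a CCAAT box close to its start, while Ndufv3 has a GC box and a CCAAT box further up. A match is a description of the letters and not a site shown to be bound.

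Complex IV had the widest range of log2 ratios in CAST-/129-, from -1.75 to 0.50, and held 5 of the 7 genes lower by 1.5-fold in CAST-/129- in reads, Cox6b2, Cox5a, Cox7a1, Cox4i1 and Cox7b2, next to Uqcrc1 and Ndufaf1. In distinct alignments Cox6b2, Cox7a1, Cox7b2 and Ndufaf1 were past that threshold with Cox6a2 (-0.59) and Atp5s (-0.69), and Cox5a, Cox4i1 and Uqcrc1 were not. The isoform families are given in turn. Summed over its 20 genes the complex was at 99.6, 94.0 and 85.3% of WT, and its median log2 ratio in CAST-/129- was -0.17 in reads and 0.03 in distinct alignments.

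Cox6b2, the isoform of cytochrome c oxidase subunit 6B known from testis, had the lowest log2 ratio of the 90 genes in all 3 clones in reads. It was at 40.2 FPKM (37.2 to 43.4) in WT, against 24.1 (21.1 to 27.4) for CAST+/129-, 15.6 (12.2 to 19.7) for CAST-/129+ and 9.11 (6.51 to 12.4) for CAST-/129-. These values come from 662, 230, 71 and 40 distinct alignments. Each clone was below WT, at 59.8% (51.5 to 69.5), 38.7% (30.3 to 49.5) and 22.7% (16.5 to 31.2), and the biallelic clone was the lowest of the 4 libraries. The log2 ratios of -0.66, -1.17 and -1.75 were -0.48, -1.05 and -1.67 in distinct alignments and -0.69, -1.10 and -1.70 after thinning. Cox7b2, which had few reads, was lower than Cox6b2 in distinct alignments in CAST+/129- (-0.95) and CAST-/129+ (-1.20) and after thinning in CAST+/129- (-0.75), and Cox6a2, with 0 reads in the clones, was lower in CAST+/129- in both (-0.59 and -0.76). Cox6b1, the common isoform, was at 246 FPKM (234 to 257) in WT, 281 (265 to 297), 325 (302 to 349) and 312 (290 to 336) in the clones. Cox6b1 was above WT in each clone and in each unit of counting.

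Cox7a1, the heart and skeletal muscle isoform of subunit 7A, was at 33.7 FPKM (30.3 to 37.4) in WT, against 35.7 (31.1 to 40.7) for CAST+/129-, 20.8 (16.0 to 26.7) for CAST-/129+ and 15.7 (11.2 to 21.5) for CAST-/129-. The 129-deleted clone overlapped WT, and the other 2 clones were at 61.8 and 46.6% of it. The 15 muscle markers, with a median of 0.137 FPKM in WT, had a median log2 ratio of 0.07, 0.12 and 0.06. In reads 2, 3 and 4 of them were higher by 1.5-fold, with 2.93, 3.68 and 5.24% of all genes. Lower by 1.5-fold were 0 of them, with 3.27, 3.36 and 3.68% of all genes. In CAST-/129- Acta1 made up 61.7 of their summed 91.6 FPKM. Cox7a2, the common isoform, was at 158 FPKM (150 to 165), 195 (184 to 206), 206 (191 to 222) and 192 (178 to 208), above WT in each clone. Cox7a2l, a related protein that joins complexes III and IV, was at 69.9, 66.2, 69.1 and 62.7 FPKM, with log2 ratios of -0.07, -0.01 and -0.15 in reads and -0.08, -0.02 and -0.23 in distinct alignments.

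Promoter windows of 250 bases before the start are shown for both pairs, from RefSeq on GRCm38.p6, because the isoforms of a pair differ in their ratios. The same motifs are in capitals. The windows are chr7:4753095-4753344 (minus strand) for Cox6b2, chr7:30626115-30626364 (minus strand) for Cox6b1, chr7:30183921-30184170 (plus strand) for Cox7a1 and chr9:79759854-79760103 (minus strand) for Cox7a2.
Cox6b2: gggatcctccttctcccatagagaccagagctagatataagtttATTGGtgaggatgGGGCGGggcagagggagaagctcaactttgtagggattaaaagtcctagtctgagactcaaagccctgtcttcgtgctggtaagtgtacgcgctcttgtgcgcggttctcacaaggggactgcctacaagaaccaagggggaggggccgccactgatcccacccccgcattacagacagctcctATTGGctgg
Cox6b1: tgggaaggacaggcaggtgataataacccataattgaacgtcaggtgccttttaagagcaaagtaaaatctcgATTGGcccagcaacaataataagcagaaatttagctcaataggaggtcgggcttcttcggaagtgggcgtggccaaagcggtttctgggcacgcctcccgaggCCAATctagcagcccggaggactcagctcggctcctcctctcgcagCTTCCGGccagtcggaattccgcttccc
Cox7a1: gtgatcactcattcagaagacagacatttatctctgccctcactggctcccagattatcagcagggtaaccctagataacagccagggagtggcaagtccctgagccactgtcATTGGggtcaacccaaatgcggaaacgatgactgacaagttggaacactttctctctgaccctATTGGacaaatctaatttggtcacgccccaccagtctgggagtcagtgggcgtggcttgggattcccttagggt
Cox7a2: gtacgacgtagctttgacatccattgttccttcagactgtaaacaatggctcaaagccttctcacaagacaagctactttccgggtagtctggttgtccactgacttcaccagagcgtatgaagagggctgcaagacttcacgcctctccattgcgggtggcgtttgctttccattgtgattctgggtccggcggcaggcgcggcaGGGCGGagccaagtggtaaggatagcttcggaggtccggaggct
In these pairs the tissue isoforms had fewer CpG dinucleotides in the whole 300-base window, 10 in Cox6b2 and 7 in Cox7a1, than the common isoforms with 17 in Cox6b1 and 20 in Cox7a2. Cox8b, with 2, was likewise below Cox8a, with 19, but Cox7b2, with 10, was above Cox7b, with 5. An ETS core was found in Cox6b1, and none of the other 3 windows shown here holds these letters.

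Cox4i1, the common isoform of subunit 4 and the most abundant member in WT per exonic base, was at 644 FPKM (627 to 661) in WT, against 641 (619 to 664) for CAST+/129-, 432 (409 to 455) for CAST-/129+ and 387 (366 to 410) for CAST-/129-. In distinct alignments the log2 ratios of -0.01, -0.57 and -0.73 were 0.22, 0.09 and -0.02. The gene lies on chromosome 8, whose 488 genes with a mean of at least 5 FPKM had median log2 ratios of 0.09, -0.33 and -0.25, while the medians of the other chromosomes lay between -0.03 and 0.10. With the median of its chromosome taken off, Cox4i1 was at -0.10, -0.24 and -0.48. Ndufa13, Ndufb7 and Cox4nb, also on chromosome 8, were at -0.03, 0.11 and 0.24 in CAST-/129+ and -0.03, -0.14 and -0.01 in CAST-/129- on that scale. Cox4nb starts 178 bases from Cox4i1. The part of the chromosome in these values was not tested. Cox4i2, the isoform of lung and low oxygen, was at 0.803 FPKM (0.542 to 1.15) in WT and 1.26, 1.03 and 0.593 in the clones, with overlapping intervals.

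Cox5a, a subunit on the matrix side, was at 544 FPKM (527 to 561) in WT, against 389 (372 to 406) for CAST+/129-, 300 (281 to 320) for CAST-/129+ and 273 (255 to 292) for CAST-/129-. Among members with at least 100 distinct alignments in WT or the clone, it had the second lowest ratio in all 3 clones, at -0.48, -0.85 and -0.98. In the WT library 6.06 reads stood behind each distinct alignment of Cox5a, and the ratios were -0.03, -0.03 and -0.09 in distinct alignments and -0.26, -0.51 and -0.60 after thinning. Cox5a was below WT in each clone and each unit, but in distinct alignments the clones were at 98.0, 98.2 and 93.7% of WT, and the size was not settled by these files. Its neighbour in the complex, Cox5b, was at 293, 318, 343 and 322 FPKM.

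The other tissue isoforms of complex IV were low, each with a mean under 5 FPKM. Cox7b2, of testis, had 126 reads in WT and 12, 2 and 2 in the clones, at 3.59 FPKM (2.88 to 4.41), 0.998 (0.479 to 1.84), 0.373 (0.0451 to 1.35) and 0.431 (0.0522 to 1.56), where the WT rate would give 43.1, 19.2 and 16.6 reads. Cox6a2, of heart and muscle, had 56 reads in WT, 1.31 FPKM (0.904 to 1.84), and 0 in each clone, which allows up to 0.206, 0.461 and 0.533 FPKM by a floor of 3 reads, where the WT rate would give 19.2, 8.55 and 7.40 reads. For both, WT was the highest of the 4 libraries. Cox8c, of testis, was at 2.17 FPKM (1.58 to 2.91) in WT and 1.33 (0.636 to 2.44), 0.849 (0.231 to 2.17) and 0.981 (0.267 to 2.51) in the clones, where the intervals overlapped WT. Cox8b, of heart and muscle, had 0 reads in each library, which allows up to 0.128, 0.374, 0.837 and 0.968 FPKM. Their common partners were abundant and near WT. Cox6a1 was at 230, 212, 230 and 237 FPKM, Cox7b at 134, 127, 127 and 116, and Cox8a at 298, 326, 305 and 290.

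Ndufa4, first assigned to complex I and now known as a subunit of complex IV, was at 359 FPKM (344 to 373) in WT, 392 (372 to 412), 451 (422 to 481) and 386 (359 to 413) in the clones. Its low-oxygen relative Ndufa4l2 had 2 reads in WT and 53, 36 and 14 in the clones, at 0.0322 FPKM (0.00389 to 0.116), 2.49 (1.84 to 3.30), 3.79 (2.57 to 5.38) and 1.70 (0.907 to 2.91). The ratio to WT was 77.4-fold (18.8 to 319), 118-fold (28.2 to 492) and 53.0-fold (12.0 to 235). These intervals are wide and only approximate, since WT had 2 reads. In distinct alignments the clones were at 4787, 6357 and 2770% of WT. Over its 261 coding bases alone Ndufa4l2 was at 0 FPKM in WT and in CAST-/129-, against 8.02 in CAST+/129- and 9.07 in CAST-/129+, so that only these 2 clones were above WT there.

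**Figure D4:**
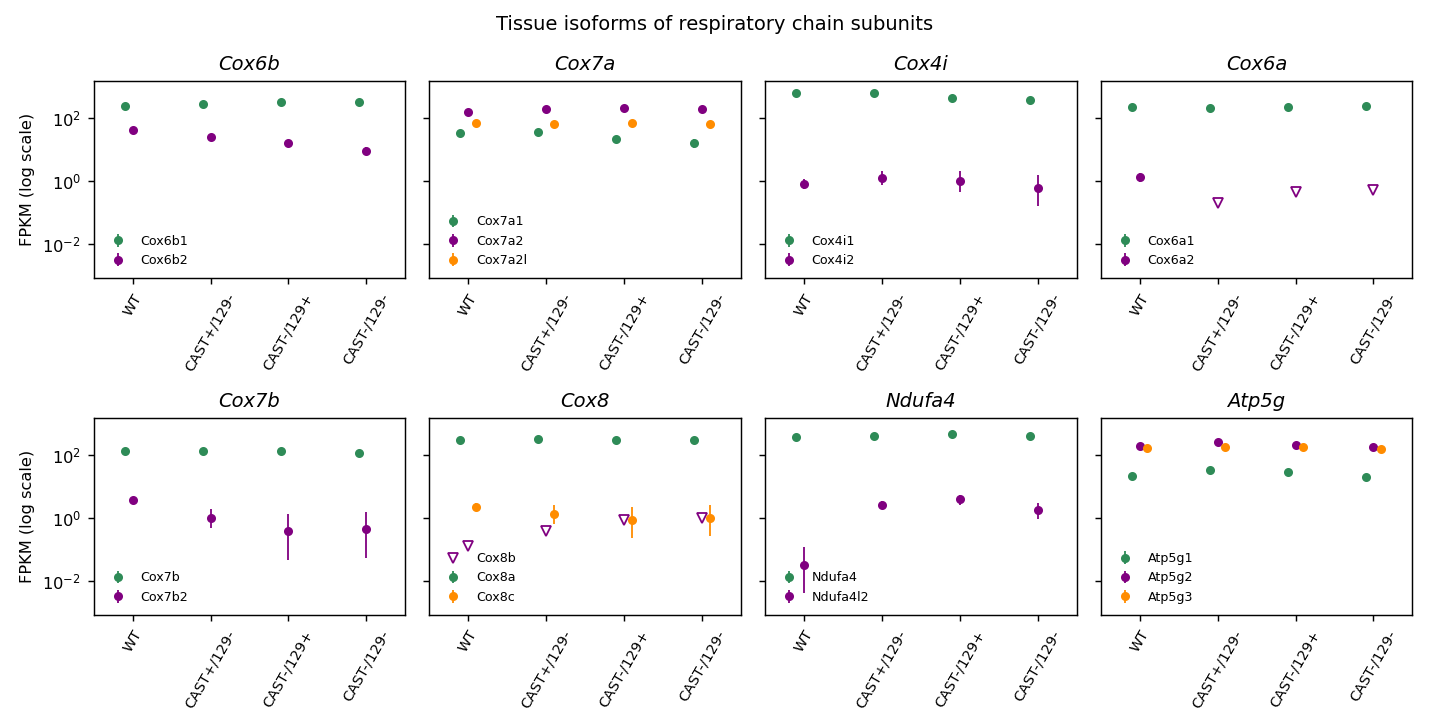
FPKM on a log scale of the members of 8 isoform families in the 4 RNA libraries, with 95% counting intervals, and an open triangle at the upper limit where a library had 0 reads. Cox6b2 is highest in WT (40.2 FPKM) and lowest in CAST-/129- (9.11 FPKM) while Cox6b1 is not, and Ndufa4l2 is near 0 in WT alone.

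Complex V, the ATP synthase, had median log2 ratios of 0.14, 0.16 and -0.07, and its summed level was 106, 102 and 90.7% of WT. In distinct alignments the medians were 0.34, 0.57 and 0.40, so that CAST-/129- was below WT in one unit and above it in the other. Per exonic base the catalytic subunits were the most abundant in WT, while per coding base Atp5b was at 1208 FPKM, Atp5k at 990 and Atp5a1 at 884. Atp5a1 was at 370 FPKM (364 to 377) in WT, 317 (310 to 324), 324 (315 to 334) and 310 (300 to 319) in the clones. Atp5b was at 346, 358, 307 and 270 FPKM. Both had ratios between -0.35 and 0.05 in reads and between 0.12 and 0.30 in distinct alignments.

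Subunit c of the membrane rotor is encoded by 3 genes with the same mature protein. Atp5g1 was at 20.5 FPKM (19.6 to 21.4) in WT, against 33.9 (32.2 to 35.6) for CAST+/129-, 28.9 (26.8 to 31.0) for CAST-/129+ and 19.1 (17.5 to 20.8) for CAST-/129-. Atp5g2 was at 183 FPKM (175 to 191), 259 (246 to 274), 209 (194 to 225) and 177 (163 to 192). Atp5g3 was at 162, 179, 182 and 155 FPKM. All 3 were above WT in both clones with a deletion on 1 allele, in reads and in distinct alignments. In CAST-/129- they were at 93.1, 96.9 and 95.5% of WT in reads and at 116, 118 and 136% in distinct alignments. CAST+/129- was the highest library for Atp5g1 and Atp5g2 in reads, but in distinct alignments CAST-/129+ was, at 25.7 against 24.8 FPKM for Atp5g1 and 181 against 168 for Atp5g2. Atp5g1 was the lowest member of complex V in WT per exon base, yet was at 275 FPKM over its 408 coding bases of 4908 exonic bases.

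Of the smaller subunits, Atp5d, of the central stalk, was at 59.9, 69.0, 85.3 and 74.4 FPKM and Atp5l, subunit g, at 141, 180, 153 and 190 FPKM, above WT in each clone. Atp5k, subunit e, shows how far the unit of counting can reach. It was at 255, 209, 213 and 189 FPKM in reads, with 13.2 reads behind each distinct alignment in WT, and its log2 ratio in CAST-/129- was -0.43 in reads, 0.95 in distinct alignments and 0.06 after thinning. Of the 3 genes that carry the names only, Cox4nb, part of the endoplasmic reticulum membrane complex, was at 20.6, 28.9, 19.1 and 16.6 FPKM. Atp5sl was at 9.47, 11.4, 8.49 and 8.61 FPKM. Atp5s, a regulator called factor B, was at 5.52 FPKM (4.94 to 6.14), 3.55 (2.90 to 4.31), 3.20 (2.31 to 4.31) and 3.38 (2.37 to 4.68), below WT in each clone.

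Genes outside the name rule were taken from lists of the same pathway. Of 13 protein genes of mitochondrial DNA, 12 were measured, all of them abundant, with a summed level of 35554 FPKM in WT, 25093 in CAST+/129-, 30476 in CAST-/129+ and 28224 in CAST-/129-. Their median log2 ratios were -0.61, -0.27 and -0.21 in reads and -0.09, 0.33 and 0.31 in distinct alignments, and 7, 2 and 2 were lower by 1.5-fold in reads but 2, 1 and 0 in distinct alignments, where 8.42, 8.90 and 10.2% of genes with a mean of at least 5 FPKM were lower in reads and 8.17, 11.2 and 14.4% in distinct alignments. In reads the lowest ratios in CAST+/129- and CAST-/129+ were those of mt-Nd5, a complex I core subunit, at 1969, 748, 1038 and 1111 FPKM, and mt-Nd3 at 127, 46.4, 70.0 and 100 FPKM. In CAST-/129- mt-Nd5 was again the lowest, at -0.82, while mt-Nd1 (-0.68), mt-Nd2 (-0.55) and mt-Co2 (-0.53) were lower than mt-Nd3 (-0.33). Both mt-Nd5 and mt-Nd3 were below WT in every clone in both units, with distinct ratios of -0.68, -0.27 and -0.13 for mt-Nd5 and of -1.10, -0.63 and -0.22 for mt-Nd3.

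The 5 electron carriers and linked genes (Cyc1, Cycs, Cyct, Atpif1 and Usmg5) had median log2 ratios of -0.04, 0.23 and 0.00 in reads and 0.04, 0.22 and 0.06 in distinct alignments. In CAST-/129- 3.68% of all genes and 10.2% of those with a mean of at least 5 FPKM were lower by 1.5-fold in reads. Of these 5 genes, 2 were. Those were Cyct, the cytochrome c of testis, at 5.09, 3.99, 5.09 and 1.07 FPKM, and Cyc1, cytochrome c1 of complex III, at 149, 132, 140 and 97.4 FPKM. In distinct alignments the log2 ratio of Cyct in CAST-/129- was -1.05 and that of Cyc1 was -0.26, so that Cyc1 was no longer past the threshold. Of 31 assembly factors outside the rule 26 were measured, with medians of -0.03, -0.08 and -0.08 in reads and 0.01, -0.14 and -0.20 in distinct alignments. Sco2, a copper chaperone of complex IV, was at 4.30, 10.8, 9.08 and 9.73 FPKM, higher by 1.5-fold in each clone in reads, but in CAST+/129- alone in distinct alignments, with log2 ratios of 0.78, 0.45 and 0.50. Cox17, another copper chaperone, was at 20.2, 19.7, 13.5 and 10.5 FPKM, and its log2 ratio in CAST-/129- was -0.74 in reads and -0.21 in distinct alignments.

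The list of citric acid cycle genes also held Pdha1, Pdhb and Dlat of pyruvate dehydrogenase, which feeds the cycle. Its 17 genes had median log2 ratios of -0.03, -0.18 and -0.21 in reads and 0.07, 0.02 and -0.05 in distinct alignments. Lower by 1.5-fold were 2, 2 and 4 of them in reads and 0, 0 and 2 in distinct alignments, and 0 were higher in either unit, against the shares of expressed genes given for the mitochondrial DNA. Idh2, mitochondrial isocitrate dehydrogenase, was at 131 FPKM in WT, 73.1, 63.9 and 37.7 in the clones, and was past 3-fold lower in CAST-/129- in reads (log2 ratio -1.69, or -1.01 in distinct alignments). Suclg2, a subunit of succinyl-CoA synthetase, was at 41.9, 36.7, 30.3 and 22.8 FPKM. Of 17 regulators of mitochondrial genes 16 were measured, with medians of 0.02, 0.02 and -0.03 in reads and 0.02, -0.02 and -0.22 in distinct alignments. Esrrb, a nuclear receptor that is also an embryonic stem cell marker, was at 73.1, 38.0, 23.5 and 16.9 FPKM, and Ppargc1b, a coactivator, was at 4.65, 1.53, 1.87 and 2.43 FPKM. For comparison, 79 cytosolic ribosomal protein genes, more abundant with a median of 415 FPKM in WT, had medians of 0.36, 0.20 and -0.11 in reads and 0.41, 0.63 and 0.46 in distinct alignments. The 75 mitochondrial ribosomal protein genes had 0.28, 0.28 and 0.06 in reads and 0.30, 0.30 and 0.04 in distinct alignments.

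Some members share a promoter region with another gene. Among pairs in which a member and a protein-coding gene on the opposite strand start within 1 kb of each other and both had a mean of at least 5 FPKM, 16 pairs were found. In reads, both genes were on the same side of WT in 11 pairs in CAST+/129-, 13 in CAST-/129+ and 11 in CAST-/129-. The same count was not made over other pairs of genes. The side could depend on the unit, as for Rps28 next to Ndufa7 in CAST-/129-, at -0.23 in reads and 0.38 in distinct alignments. Uqcrh starts 198 bases from Lrrc41, which was at 6.90, 12.8, 18.5 and 18.4 FPKM, so that both were above WT in each clone, with log2 ratios of 0.63, 1.04 and 1.04 for Lrrc41. Ndufv3 starts 141 bases from Wdr4, whose ratios were 0.16, 0.23 and 0.03. Atp5j starts 700 bases from Gabpa, a subunit of an ETS factor of mitochondrial genes, whose ratios were -0.51, -0.55 and -0.64, while Atp5j was at -0.21, 0.04 and 0.02. The pairs were looked at after the values of the members were known.

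Histone marks were measured in unedited cells only, as distinct alignments within 1 kb of the annotated start over the mean of chromosomes 1 to 19 and X, with no input. H3K4me3 was over 5 times the mean at 83 of 90 members in F123 cells, against 52.4% of protein-coding genes and 88.2% of those with a mean of at least 5 FPKM. H3K27ac was over 5 times the mean at 73 members in F123 cells, against 35.9 and 74.2%, and at 60 members in J1 cells, against 31.1 and 65.5%. At the 83 expressed members the counts were 82, 72 and 58, and the median fold was 22.3, 12.6 and 6.99, against 20.4, 11.7 and 7.33 over all expressed protein-coding genes. Across the 83 genes the rank correlation with the WT FPKM was 0.19, 0.17 and 0.10, a description over genes that share 1 library. A window at the mean would hold 1.19 alignments in the F123 H3K27ac library, so single values there are coarse, and 30 of the 90 members have another protein-coding start within 1 kb, whose marks cannot be told apart.

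**Figure D5:**
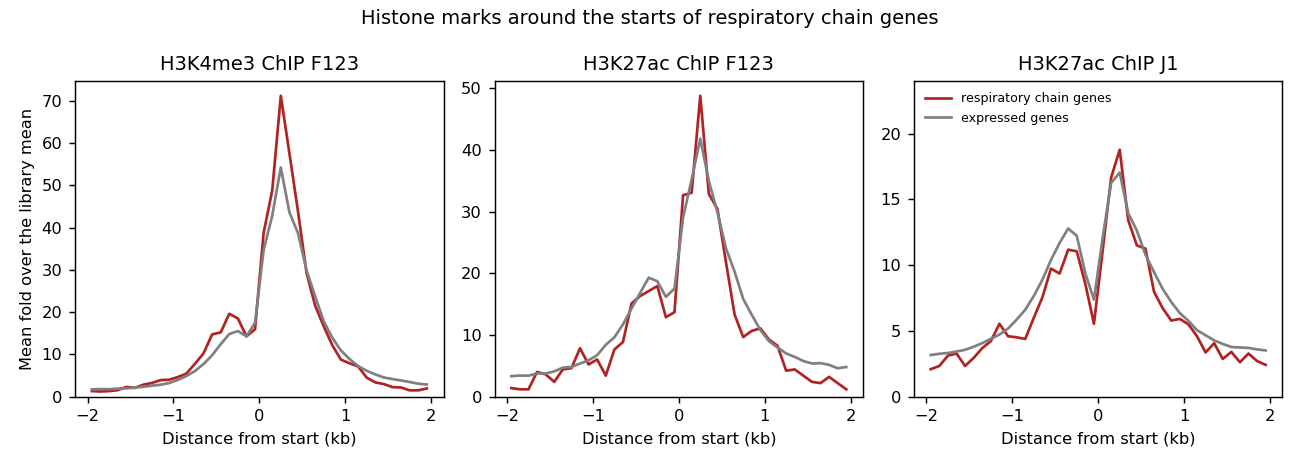
Mean fold over the library mean in 100-base steps by distance from the start, for the 83 respiratory chain genes and for all protein-coding genes with a mean of at least 5 FPKM, with 1 panel for each ChIP library. All 6 curves peak 250 bases after the start, where H3K4me3 was at 71.2-fold over the members and 54.2-fold over the other set.

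Among the members, Atp5j, which shares its window with Gabpa, had the most H3K27ac at 131-fold (112 to 154) in F123 and 58.0-fold (52.0 to 64.5) in J1, followed by Ndufaf3 at 89.6-fold (73.4 to 108) and 38.4-fold (33.5 to 43.7). Cox6b2 came next, with 62.8-fold (49.4 to 78.7) in F123 and 25.9-fold (22.0 to 30.4) in J1, and H3K4me3 at 20.1-fold (16.5 to 24.2). Its common isoform Cox6b1 had 1.67-fold (0.203 to 6.05) and 5.97-fold (4.16 to 8.30) H3K27ac and 13.0-fold (10.1 to 16.4) H3K4me3. Cox7a1 had 16.7-fold (10.2 to 25.9) and 15.2-fold (12.2 to 18.7) H3K27ac, compared with 8.37-fold (4.01 to 15.4) and 7.33-fold (5.31 to 9.87) at Cox7a2, but H3K4me3 of 4.83-fold (3.16 to 7.08) compared with 19.3-fold (15.8 to 23.4). In these pairs the tissue isoform had more H3K27ac than the common isoform at a lower RNA level, with counting intervals that did not overlap except at Cox7a1 and Cox7a2 in F123. The other families of complex IV did not show this order. Cox4i2 had 1.67-fold and 2.05-fold H3K27ac in F123 and J1, against 47.7-fold and 11.1-fold at Cox4i1. Cox6a2 had 1.67-fold and 0-fold, against 15.9-fold and 8.52-fold at Cox6a1, and Cox7b2 had 0.837-fold and 0.682-fold, against 3.35-fold and 3.92-fold at Cox7b. Cox8b had 3.35-fold and 2.22-fold and Cox8c 2.51-fold and 1.53-fold, against 14.2-fold and 7.67-fold at Cox8a. Ndufa4l2 was below Ndufa4 in F123, at 2.51-fold against 10.9-fold, and above it in J1, at 7.50-fold against 4.26-fold. Cox6a2, Cox8b, Cox8c, Cox7b2, Cox4i2, Ndufa4l2 and Cox7a1 were the 7 members with H3K4me3 at or under 5-fold.

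Promoter letters were searched in RefSeq windows of 250 bases before to 50 after the start, on GRCm38.p6, where 71 of the 90 names matched with 76 windows. Among the names not matched were Atp5a1, Atp5f1, Atp5s, Atp5sl, Cox4i1, Cox4i2, Cox4nb, Cox6a2, Cox6c, Cox8c, Ndufa2, Ndufa4l2, Ndufb9, Ndufs1, Sdhc, Uqcrb, Uqcrc2 and Uqcrq. The core of the NRF1 site (TGCGCA, its own reverse complement) was in 19 of the 76 member windows and in 7.76% of all 32851 windows. The ETS core (CCGGAAG, bound by the Gabpa factor) was in 22.4 and 8.86%, and the YY1 core (AAGATGG) in 13.2 and 6.34%, each on either strand. The CCAAT box was in 43.4 and 37.4%, the GC box in 42.1 and 35.7%, and the TATA box (TATAAA) in 10.5 and 13.6%. Member windows had a median GC content of 57.5% and 19 CpG, against 52.7% and 7 over all windows, and the part of base composition in these shares was not tested.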

How the data were processed

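RNA-seq of 4 F123 clones and ChIP-seq of F123 and J1 cells were analysed, 7 libraries with 1 for each condition, grouped by the sample labels. The authors mapped RNA-seq reads to mm9 with Novoalign, and the submitters' processing notes also name Bowtie; the versions and the treatment of reads with several matches, which matter for genes with pseudogenes, are not given in the sources used here. The deposited files list each aligned position once with a whole number, which was taken as a read count; the sources used here do not define it. These counts were the main unit, and distinct alignments, each line counted once, were an alternative.

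Reads were counted by midpoint on the strand opposite to the line, in exonic bases of 1 GENCODE M1 gene on that strand, for genes with at least 200 such bases. The library size for FPKM was the reads on genes. A value of 4 was added to FPKM before log2 ratios were taken, with thresholds of 3-fold, from the study's methods, and of 1.5-fold. The precision given for FPKM and ChIP values is an exact 95% Poisson interval of the distinct alignments, and a count of 0 allows 3 reads. Intervals of ratios to WT and of percentages of WT are approximate 95% ones. They use a normal approximation on the log scale with the distinct alignments of both libraries. In the ChIP libraries, distinct alignments whose 5′ end lay within 1 kb of a start were divided by the library mean.

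Genes named by rule are the tissue isoform families, the 5 highest and 5 lowest ratios in each clone with at least 100 distinct alignments, the highest and lowest gene of each complex in wild type, the complex II subunits and the 2 largest changes of each list. Others, such as Atp5k, Ndufab1, Ndufa13 and Ndufb7, were named outside this rule. The members and lists were chosen with earlier results of these data known. The deposited read counts show whether a gene differs between libraries but give no spread between replicates, so no test was made. Alternatives changed the unit, depth, library size, strand, pseudo-value, filter, background, ChIP window and threshold. Aligned bases, coding bases and centring on the chromosome were added after seeing the data. Alleles were not told apart. The scripts ran under Python 3.11.15 with pandas 2.3.3, numpy 2.4.6, matplotlib 3.10.9, pyarrow 21.0.0 and scipy 1.17.1.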

Additional observations from a re-analysis of the deposited data

How the results depend on the processing

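No paired analysis was possible because each genotype has 1 library, and no library could be left out. Values are given in the order CAST+/129-, CAST-/129+ and CAST-/129- unless named. With distinct alignments the median log2 ratios of the respiratory chain genes were 0.25, 0.30 and 0.17, those of complex I 0.28, 0.31 and 0.20, those of complex V 0.34, 0.57 and 0.40, and that of complex IV in CAST+/129- 0.17. Genes higher by 1.5-fold then numbered 19 in CAST-/129+ and 8 in CAST-/129-, and Uqcrc1 in CAST-/129- turned from -0.68 to 0.09. The shares of the summed FPKM were 1.66, 1.83, 1.91 and 1.87% from WT to CAST-/129-, so that WT was the lowest and not the highest. The same shares were 2, 2, 1.93 and 1.87% after thinning, 2.11, 2.01, 1.89 and 1.85% with both strands, 1.87, 1.83, 1.71 and 1.67% with aligned bases, and 3.02, 2.94, 2.97 and 2.77% with coding bases. After thinning, 2 genes in CAST+/129- and 1 in CAST-/129- were higher by 1.5-fold, and complex V in CAST-/129+ was at 0.20. With a median-of-ratios library size the median in CAST-/129- was -0.25, where all genes with a mean of at least 5 FPKM were at -0.09. A pseudo-value of 1 gave 1 gene higher by 3-fold in CAST+/129-. In CAST-/129+ it gave 7 lower by 1.5-fold, 1 higher by 3-fold and 1 lower by 3-fold, and in CAST-/129- 2 higher by 1.5-fold and 2 lower by 3-fold. A pseudo-value of 10 gave 1 higher and 0 lower by 1.5-fold in CAST+/129-, 2 lower by 1.5-fold in CAST-/129+ with -0.07 for the 3 genes outside the complexes, and 0 lower by 3-fold in CAST-/129-. A mean of at least 5 FPKM and aligned bases each left 1 gene lower by 1.5-fold in CAST+/129-. With coding bases 1 gene was higher by 3-fold in CAST+/129- and 1 in CAST-/129+, and 6 and 1 were higher by 1.5-fold in CAST-/129+ and CAST-/129-. The shares of all genes past these folds are not given for thinning, other pseudo-values, aligned bases or coding bases. The counts under those settings therefore cannot be set against all genes. Past 10 times the mean, 27 genes had H3K27ac in J1, and the share of all protein-coding genes past that threshold is not given here. The other 336 values of the main results moved by less than their error or 1.5 times. Among the remaining values, which include the ratios of single named genes, 425 stayed within that limit, 60 moved past it and 1 reversed. Aligned bases, coding bases and centring on the chromosome were chosen after seeing the data. Beyond what a unit does by its construction, the cause of these shifts was not tested. The depth of the CAST-/129- library limits members under about 1 FPKM, and the number of reads behind each distinct alignment in the WT library limits how well the members can be compared.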
